A study of Mus musculus with 6 samples.

Results

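The nuclear genes of the respiratory chain and the ATP synthase were taken from the deposited expression table by their symbols: Nduf followed by a, b, c, s or v and a number (complex I), Sdha to Sdhd (complex II), Uqcr (complex III), Cox4 to Cox8 (complex IV) and Atp5 (complex V). This gave 87 of 22381 rows, with 38 rows for complex I, 4 for complex II, 8 for complex III, 19 for complex IV and 18 for complex V. The 87 rows carry 86 symbols, because Ndufb8 stands on 2 rows with different identifiers. Of the 87 rows, 5 do not stand for a subunit gene. They are the second Ndufb8 row, Cox4nb, which neighbours Cox4i1 and was named for that, the pseudogene Atp5l-ps1, and Atp5s and Atp5sl, which encode factor B of the ATP synthase and a relative of it. The other 82 were counted as subunit genes, among them Cox7a2l and Ndufa4l2, which are relatives of subunits.

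RNA sequencing was done on LSK cells from bone marrow of C57BL/6 mice aged 8 to 12 weeks. LSK cells lack the surface markers of mature blood lineages, carry Sca-1 and c-Kit, and contain blood stem cells together with early progenitors. By the labels, 3 samples came from Tgif1-/- mice and 3 from wild-type mice, and Tgif1 encodes a homeodomain repressor. The table gives 1 FPKM value per group (fragments per transcript length and sequencing depth), so no spread between samples can be read and the depth per sample is unknown. No label states that the 3 samples per genotype are separate animals, so the authors' p-values may measure technical spread only. In bulk RNA fewer cells of a type and less RNA per cell cannot be told apart. The sources used here do not say how the Tgif1 allele was made.

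Tgif1 itself went against the labels: it had 88.6 FPKM with the Tgif1-/- label and 71.5 FPKM with the wild-type label, and its test failed. Which part of the gene is deleted is not known, and every direction below is one between the knockout-labelled and the wild-type-labelled group. The genes of the sort were present in both groups: Kit at 193 and 202 FPKM and Ly6a (Sca-1) at 120 and 88.9 FPKM. The knockout-labelled group comes first, as in all pairs of values below. Other surface genes looked at were Cd34 at 314 and 316 FPKM, Flt3 at 118 and 136 FPKM and Cd48 at 159 and 154 FPKM. Procr stood at 7.32 and 8.82 FPKM and Slamf1 at 4.02 and 4.08 FPKM. Of these 7 surface genes, the tests of Kit, Cd34 and Flt3 failed. Ly6a had a log2 ratio of 0.43 (implied standard error 0.22, taken from the authors' test statistic), with an unadjusted Cuffdiff p of 0.0536 and a q of 0.949. Among markers of other cells, the summed level of 4 mast cell and basophil genes was 359 and 138 FPKM, of 4 B cell genes 9.08 and 29.4 FPKM, of 4 myeloid genes 555 and 611 FPKM, of 4 erythroid genes 39.0 and 36.4 FPKM, of 3 megakaryocyte genes 164 and 96.2 FPKM and of 4 T cell genes 3.60 and 3.70 FPKM. All 4 mast cell and basophil genes were called higher and 2 B cell genes were called lower by Cuffdiff, and the part of such cells in the values below was not tested.

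The respiratory chain passes electrons from NADH (complex I) or succinate (complex II) through complex III and cytochrome c to complex IV, where oxygen is reduced. Complexes I, III and IV pump protons across the inner mitochondrial membrane, and the ATP synthase, complex V, uses that gradient to make ATP. Most subunits are encoded in the nucleus and a small set in mitochondrial DNA. Quiescent blood stem cells are known for relying more on glycolysis than their progeny do, and mitochondrial respiration is needed when they differentiate.

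No gene of the respiratory chain or ATP synthase passed the authors' test, which does not show that the groups were alike. Of 69 tested rows, 0 had a Cuffdiff q at or under 0.05 in the authors' deposited table (0.662% of all 10730 tested genes did) and 0 had an unadjusted p at or under 0.05 (5.41% of all tested genes did). The remaining 18 rows had no usable test. The authors' table marks 15 of them as failed, and these keep their FPKM values, while 3 had too few reads. Group values were close: 67 of the 69 tested rows had ratios of knockout-labelled to wild-type-labelled FPKM between 0.808 (Atp5s) and 1.18 (Ndufb7). The other two, Cox7a1 and the second Ndufb8 row, stood at no more than 12.7 FPKM. Of the tested rows, 40 were on the higher side with the knockout label and 29 on the lower side, which is 58.0% higher. Over all tested genes 42.6% stood higher and 57.4% lower. Over the 2936 tested genes averaging 30 FPKM or more, where most subunit genes lie, 49.5% stood higher, and 4.97% had an unadjusted p at or under 0.05. The 59 tested rows here at that level had 37 higher and 22 lower, which is 62.7% higher, and this difference was not tested. After centring on the median of all tested genes, which was -0.03 on the log2 scale, 48 rows stood higher and 21 lower. The median log2 ratio (labelled Tgif1-/- over wild type) was 0.04 for the tested rows, against -0.03 for all tested genes and -0.0014 for tested genes of at least 30 FPKM.

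The range of differences around each ratio was read from an implied standard error, that is, the log2 ratio divided by the authors' test statistic. It is an error of the authors' model. Its median was 0.21 over the tested rows, with a range from 0.06 for Ndufc2 to 1.41 for the second Ndufb8 row. The 95% interval of the ratio lay within 1.5-fold in both directions for 45 of the 69 rows and within 2-fold for 65. These intervals are per gene. A call at the authors' q asks for a larger ratio than an interval clear of 0 does, so they do not bound what the test missed. The 4 rows whose interval reached beyond 2-fold were Cox4i2, Cox7a1, Cox8b and the second Ndufb8 row. Only 6 rows, 8.70%, had a log2 ratio larger than its implied standard error: Ndufa5, Ndufs6 and Cox7a1 on the higher side and Ndufc1, Cox8a and Atp5sl on the lower side. This share was 22.3% over all tested genes and 18.4% over those of at least 30 FPKM, where the rows here had 6.78%. Under a normal model a larger share than any of these would pass 1 error without a difference, so the errors may be too wide. An unadjusted Cuffdiff p at or under 0.05 was nonetheless held by 5.41% of all tested genes, and the fit of the errors was not tested.

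**Figure D1:**
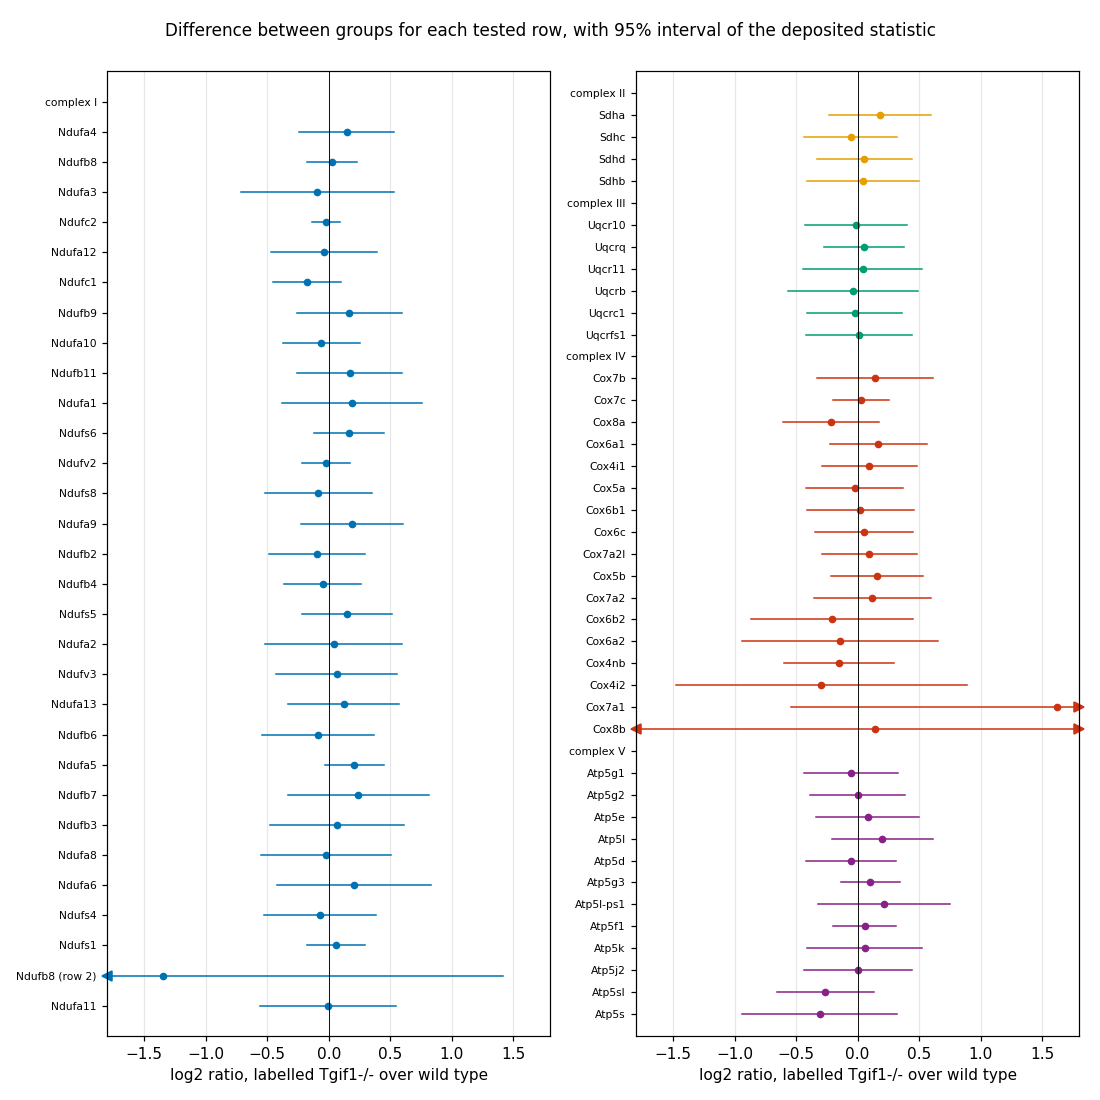
Log2 ratio of knockout-labelled over wild-type-labelled FPKM for the 69 tested rows, ordered by mean FPKM within each complex. Points are ratios of the authors' group values, lines are 95% intervals from the implied standard error, and arrowheads mark the 3 rows whose interval runs past the axis limit of 1.8. Every interval includes 0.

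Subunit genes were among the more abundant transcripts of LSK cells. The median over the 82 subunit genes, taking the mean of both group values, was 119 FPKM, against 10.8 FPKM for tested genes. A mean of at least 30 FPKM was reached by 89.0% of subunit genes and by 27.4% of tested genes. Median levels differed between complexes, from 74.0 FPKM for complex I to 312 FPKM for complex V, with 163 FPKM for complex II, 156 FPKM for complex III and 155 FPKM for complex IV. The transcripts are short: the merged exon length in GENCODE M21 had a median of 1550 bases over the 87 rows and 3582 bases over the 20781 genes of the table with a match.

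**Figure D2:**
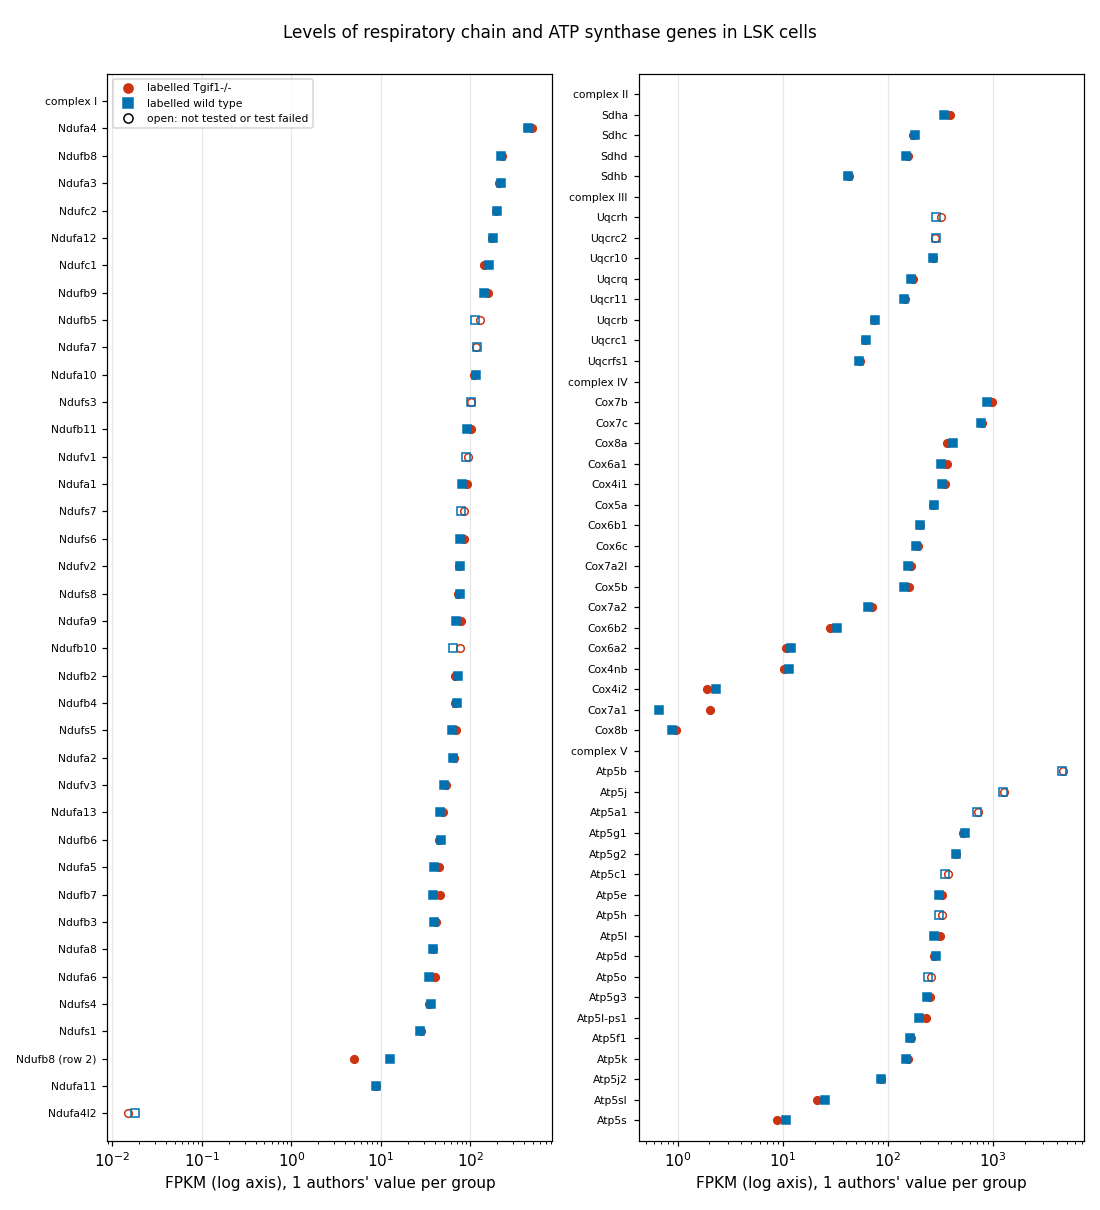
FPKM (log axis) of each row with the knockout label (circles) and the wild-type label (squares), by complex and ordered by mean level. Open symbols mark rows whose test failed or had too few reads. Cox7b2 and Cox8c, listed at 0 in both groups, are not drawn, nor is 1 row that is not reported here. The symbols of a row overlap or nearly so, apart from Cox7a1 and the second Ndufb8 row, while levels within a complex span more than a factor of 5 in each complex.

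Complex I, the NADH dehydrogenase, has a catalytic core that binds flavin, iron-sulphur clusters and ubiquinone, and a shell of accessory subunits. Among the core subunits, tests failed for Ndufs3 at 101 and 102 FPKM, Ndufs7 at 83.8 and 79.0 FPKM, and Ndufv1, which binds flavin and takes the electrons from NADH, at 94.8 and 89.7 FPKM. The core genes with a test were Ndufs1 at 28.2 and 27.1 FPKM, Ndufs8 at 71.8 and 76.2 FPKM and Ndufv2 at 74.6 and 75.7 FPKM. Their log2 ratios were 0.06, -0.08 and -0.02, each smaller than its implied standard error. Ndufv2 lies on the chromosome of Tgif1, with its listed end 4.74 Mb before the start of Tgif1, and its log2 ratio had a 95% interval from -0.22 to 0.18. The 6 complex I and IV rows on chromosome 17 gave 3 higher and 3 lower values, 2 of them with a failed test.

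Counted as accessory subunits of complex I were 30 rows, which include Ndufa4 and its relative Ndufa4l2. Of these, 26 were tested, 15 higher and 11 lower with a median log2 ratio of 0.05, and they held the smallest p-value of all members. Ndufa5, a subunit of the arm that reaches into the matrix (ENSMUSG00000023089, chromosome 6, positions 24468666 to 24478013 in the table), stood at 45.0 and 38.9 FPKM. The log2 ratio of Ndufa5 was 0.21 (implied standard error 0.12), and the authors' deposited table gives an unadjusted Cuffdiff p of 0.0852 and a q of 1.00. It was the 1 tested row with p at or under 0.1, a level reached by 8.44% of all tested genes. Ndufb7 had the highest log2 ratio among tested complex I rows, 0.24 (implied standard error 0.29), at 45.4 and 38.5 FPKM. Ndufc1 had the lowest among rows that stand for a subunit, -0.18 (implied standard error 0.14), at 141 and 160 FPKM. These values lie on both sides of 0 within about 1.2-fold of equality. Ndufb10, whose test failed, stood at 76.4 and 63.8 FPKM, a log2 ratio of 0.26 without an error. Ndufc2 gave the tightest estimate, 195 and 198 FPKM, with a 95% interval of the log2 ratio from -0.14 to 0.09.

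The other accessory subunits stood close between groups too. Around the NADH-oxidising arm, Ndufs4, a subunit whose loss causes encephalopathy in mice, stood at 34.8 and 36.5 FPKM. Ndufs6, a zinc-binding subunit, stood at 85.0 and 75.8 FPKM, a log2 ratio of 0.17 (implied standard error 0.15), and Ndufv3 at 53.0 and 50.7 FPKM. Of these, Ndufs6 alone had a ratio beyond its implied error. Among further Ndufa genes, Ndufa9 stood at 78.6 and 68.96 FPKM, Ndufa6 at 39.9 and 34.7 FPKM, Ndufa13 at 49.8 and 45.8 FPKM, and Ndufa2 at 65.9 and 64.2 FPKM. On the lower side were Ndufa10 at 109 and 114 FPKM, Ndufa12 at 175 and 180 FPKM, Ndufa8 at 37.9 and 38.5 FPKM, and Ndufa7, whose test failed, at 114 and 118 FPKM. None of the tested ones had a ratio beyond its implied error.

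The Ndufb genes and Ndufs5 encode parts of the membrane arm. Ndufb9 stood at 159 and 142 FPKM, Ndufs5 at 69.5 and 62.7 FPKM, Ndufb3 at 40.8 and 38.9 FPKM, and Ndufb5, whose test failed, at 129 and 114 FPKM. On the lower side were Ndufb2 at 67.8 and 72.3 FPKM, Ndufb4 at 67.5 and 69.9 FPKM, and Ndufb6 at 44.2 and 46.9 FPKM. The X-linked Ndufa1 and Ndufb11 stood at 92.6 and 81.2 FPKM and, in the same order, at 102 and 90.6 FPKM. With Cox7b of complex IV they are the 3 members on the X chromosome, all on the higher side with a median log2 ratio of 0.17 and each within its implied standard error.

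Levels within complex I were uneven. Ndufa4 stood above the rest at 488 and 442 FPKM. Its product was assigned to complex I by name and has since been placed with complex IV. Ndufb8 at 223 and 219 FPKM was next, followed by Ndufa3 at 208 and 221 FPKM. At the other end were Ndufa11 at 8.77 and 8.81 FPKM and Ndufa4l2, a hypoxia-inducible relative of Ndufa4, at 0.0148 and 0.0180 FPKM with too few reads to test. The second Ndufb8 row (ENSMUSG00000091471) stood at 5.00 and 12.7 FPKM, a log2 ratio of -1.35 (implied standard error 1.41). It has the same listed position as the main Ndufb8 row, chromosome 19 from 44591447 to 44629930, so reads of the main gene may be divided between both rows and its value is uncertain.

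Complex II, succinate dehydrogenase, also works in the tricarboxylic acid cycle, and all 4 of its subunits are nuclear and were tested. Sdha, the flavoprotein that oxidises succinate, stood at 387 and 341 FPKM, with a log2 ratio of 0.18, an implied standard error of 0.21 and the smallest p of the complex (Cuffdiff p = 0.393 in the authors' deposited table). Sdhb, the iron-sulphur subunit, stood much lower, at 42.8 and 41.5 FPKM. The membrane anchors Sdhc and Sdhd stood at 172 and 179 FPKM and, in the same order, at 154 and 148 FPKM. The median log2 ratio of the complex was 0.05, and Sdhc alone was on the lower side.

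Complex III, the cytochrome bc1 complex, showed the narrowest spread of ratios. Its 6 tested genes had log2 ratios from -0.04 (Uqcrb) to 0.05 (Uqcrq), 3 on each side of 0, with a median of -0.0015. The core protein Uqcrc1 stood at 60.3 and 61.2 FPKM, and Uqcrfs1, the Rieske iron-sulphur protein, at 53.7 and 53.3 FPKM. Of the small subunits, Uqcr10 stood at 267 and 269 FPKM, Uqcrq at 171 and 165 FPKM, Uqcr11 at 145 and 141 FPKM and Uqcrb at 72.7 and 74.8 FPKM. The tests of Uqcrc2 at 279 and 283 FPKM and of Uqcrh at 318 and 286 FPKM failed. Uqcrq had the smallest p of the complex (Cuffdiff p = 0.746 in the authors' deposited table).

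Complex IV, cytochrome c oxidase, had no failed tests. Its most abundant nuclear genes were Cox7b at 971 and 879 FPKM and Cox7c at 776 and 762 FPKM. The log2 ratio of Cox7c was 0.03 with a 95% interval from -0.20 to 0.25, and that of Cox7b was 0.14 (implied standard error 0.24). Cox5a, at 268 and 273 FPKM, and Cox5b, at 158 and 142 FPKM, also stood close together between groups, with log2 ratios of -0.03 and 0.15. Cox6c stood at 191 and 185 FPKM, and Cox7a2l, a supercomplex factor related to subunit 7a, at 165 and 155 FPKM. The median log2 ratio over the 17 tested rows was 0.05, with 11 higher and 6 lower. Cox4i1 and Cox4nb share a listed position of several megabases on chromosome 8, 122434260 to 126869624, with 75 rows of the table in all, so the position does not locate either gene.

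Several complex IV subunits exist as isoforms from separate genes, and the form known from most tissues made up nearly all of the transcript in both groups. Of the summed FPKM of subunit 4, Cox4i1 held 99.5% and 99.3%, with Cox4i1 at 345 and 323 FPKM and the lung and hypoxia isoform Cox4i2 at 1.88 and 2.31 FPKM. Of subunit 8, Cox8a held 99.7% and 99.8%, at 360 and 418 FPKM, with the muscle isoform Cox8b at 0.965 and 0.876 FPKM and the testis isoform Cox8c listed at 0 in both groups. Of subunit 6a, Cox6a1 held 97.1% and 96.4%, at 360 and 321 FPKM, beside the heart and muscle isoform Cox6a2 at 10.8 and 11.9 FPKM. The Cox6a2 position in the table is shared with 1 further gene, so its level may include reads of a neighbour. Of subunit 7b, Cox7b held all of the listed value, and the testis isoform Cox7b2 was listed at 0 in both groups.

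Subunit 6b was the exception in its mix. The isoform known from testis, Cox6b2, held 12.2% and 14.0% of the summed value, at 28.1 and 32.5 FPKM beside Cox6b1 at 202 and 199 FPKM. Its log2 ratio was -0.21 (implied standard error 0.34). For subunit 7a, the widely expressed Cox7a2 stood at 70.2 and 64.6 FPKM and the heart and muscle isoform Cox7a1 (chromosome 7, positions 30969190 to 30971047 in the table) at 2.04 and 0.661 FPKM. The log2 ratio of Cox7a1, 1.63, was the largest of all members, but its implied standard error was 1.10, its 95% interval ran from -0.54 to 3.79, and its unadjusted Cuffdiff p was 0.141 in the authors' deposited table. With a pseudocount of 1 FPKM the log2 ratio was 0.87. Cox8a had the lowest log2 ratio of the abundant complex IV genes, -0.22 (implied standard error 0.20), and the authors' deposited table gives it a Cuffdiff p of 0.279.

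**Figure D3:**
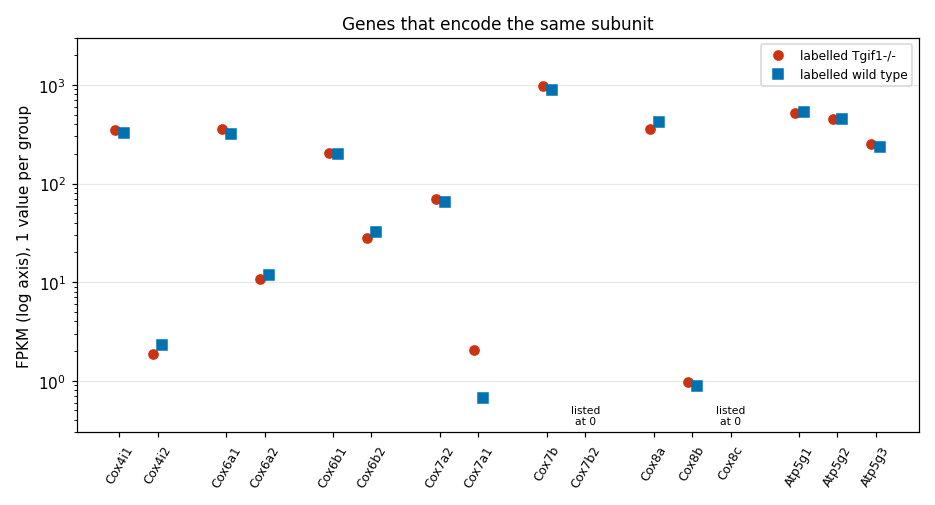
FPKM (log axis) of genes that encode the same subunit of complex IV, and of the 3 genes of the ATP synthase c subunit, with the knockout label (circles) and the wild-type label (squares). In each complex IV set the first gene stands at least 6-fold above the others, while the 3 c-subunit genes lie within about 2.3-fold of each other.

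Complex V, the ATP synthase, had the highest levels and the largest share of failed tests, 6 of 18 rows. The catalytic F1 head is built from Atp5a1 and Atp5b around a central stalk. Atp5b was the most abundant member of all, at 4631 and 4466 FPKM, and its partner Atp5a1 stood at 719 and 695 FPKM, although both proteins enter the head in equal numbers. Both tests failed, and Atp5b shares its listed position with 2 other rows. The central stalk genes were Atp5c1 at 369 and 350 FPKM (test failed), Atp5d at 274 and 285 FPKM, and Atp5e at 325 and 307 FPKM. The log2 ratios of Atp5d and Atp5e were -0.05 and 0.08, with implied standard errors of 0.19 and 0.21.

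The rotating c-ring is made of 1 peptide encoded by 3 genes that differ in their targeting sequences. Atp5g1 stood at 516 and 535 FPKM, Atp5g2 at 447 and 447 FPKM, and Atp5g3 at 249 and 232 FPKM. Atp5g1 gave 42.6% and 44.1% of the summed value, Atp5g2 36.9% and 36.8%, and Atp5g3 20.6% and 19.1%. The sum of the 3 was 1212 FPKM with the knockout label and 1214 FPKM with the wild-type label. The shares of each gene differed by less than 2 percentage points between groups, and the log2 ratios of -0.05, -0.0006 and 0.10 were each within their implied standard errors.

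The peripheral stalk and membrane part held 7 genes, all of them on the higher side with the knockout label, with log2 ratios that did not exceed the errors of those tested. Of these, 4 were tested: Atp5f1 at 167 and 161 FPKM, Atp5j2 at 85.3 and 85.2 FPKM, Atp5k at 156 and 150 FPKM, and Atp5l at 313 and 273 FPKM. Atp5l had the highest log2 ratio of these, 0.20 (implied standard error 0.21), with a Cuffdiff p of 0.340 by the authors' deposited table. The tests of Atp5h at 322 and 303 FPKM, Atp5j at 1256 and 1242 FPKM and Atp5o at 258 and 240 FPKM failed. The pseudogene row Atp5l-ps1 stood at 227 and 196 FPKM, a log2 ratio of 0.21. Reads of Atp5l and its processed copy can be split between them, so both levels are uncertain. Factor B gene Atp5s stood at 8.72 and 10.8 FPKM and its relative Atp5sl at 20.9 and 25.0 FPKM, where Atp5sl had the smallest p of the complex (Cuffdiff p = 0.190 in the authors' deposited table).

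The rows with failed tests have group values but no error. These 15 rows had log2 ratios from -0.05 (Ndufa7) to 0.26 (Ndufb10), 12 higher and 3 lower, with a median of 0.08. With them included, 52 of the 85 rows with values above 0 in both groups stood higher and the median log2 ratio was 0.05. Of the 15, 6 share their listed position with another gene, as do 20 of all 87 rows. Failed tests made up 17.2% of the rows here and 14.0% of all rows of the table. Among rows averaging 30 FPKM or more they made up 20.3% of the rows here and 34.0% of all.

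**Figure D4:**
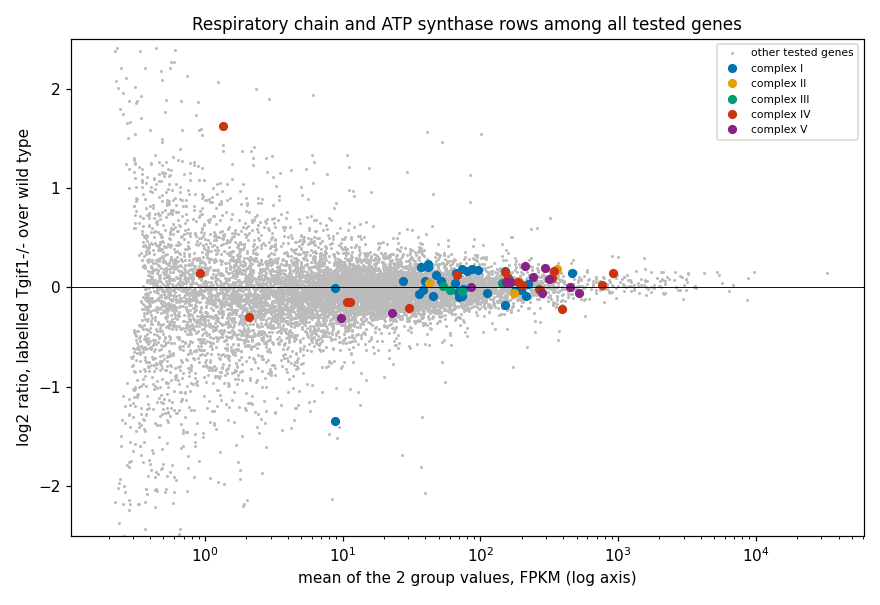
Log2 ratio against the mean of both group values (FPKM, log axis) for the 69 tested rows, coloured by complex, and 10614 other tested genes in grey, of which 56 lie outside the vertical axis. Members of at least 30 FPKM lie within 0.24 of 0, and the 2 far from 0 are Cox7a1 and the second Ndufb8 row.

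Promoter sequences were looked at for what the genes share beyond their names. RefSeq promoters (GRCm38.p6, 250 bases before to 50 after the annotated start) were found for 66 of the 86 symbols. A gene with several listed starts counted once, if any of them had a match. The letters searched were GCGCA and GCGC with 1 free base between them for NRF1, an activator of many respiratory genes, and CCGGAAGT for GABPA, also called NRF2, each on both strands. The NRF1 letters were in the promoter of 17 of the 66 genes (25.8%), against 5.19% of all 27025 genes with a promoter and 14.1% of the 1932 that were tested and had at least 30 FPKM. By complex they were in 7 of 32 genes of complex I, 2 of 3 of complex II, 1 of 5 of complex III, 1 of 13 of complex IV and 6 of 13 of complex V. The GABPA letters were in 5 of the 66 (7.58%), against 4.31% of all genes with a promoter and 11.02% of the 1932, so the share was above the first and below the second. Of 24 NRF1 matches over the 71 listed starts, where neighbouring starts can show the same letters, 19 began before the start site. A match is a description of the letters only.

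The 150 bases before the start site are shown 5′ to 3′ for 5 genes, with matches in capitals, to set a gene with many matches beside genes with few or none. Sdha has 3 NRF1 matches, and Cox6a1 has 2, of which 1 lies in this stretch. Cox7a1, the muscle isoform that stood near 1 FPKM, has none. Atp5g2 and Atp5g1 encode the same c-ring peptide at like levels, and Atp5g2 has a match where Atp5g1 has none.
Sdha (chr13:74350241-74350390, minus strand): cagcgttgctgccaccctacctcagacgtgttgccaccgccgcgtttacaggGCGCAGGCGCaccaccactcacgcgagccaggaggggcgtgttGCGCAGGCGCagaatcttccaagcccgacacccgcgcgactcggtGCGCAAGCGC
Cox6a1 (chr5:115348959-115349108, minus strand): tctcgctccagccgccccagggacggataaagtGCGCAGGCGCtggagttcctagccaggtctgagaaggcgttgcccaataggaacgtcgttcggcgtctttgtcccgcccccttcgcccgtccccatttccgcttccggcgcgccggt
Cox7a1 (chr7:30184021-30184170, plus strand): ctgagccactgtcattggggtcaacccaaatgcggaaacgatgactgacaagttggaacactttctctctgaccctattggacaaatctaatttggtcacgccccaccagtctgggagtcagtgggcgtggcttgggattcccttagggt
Atp5g2 (chr15:102671048-102671197, minus strand): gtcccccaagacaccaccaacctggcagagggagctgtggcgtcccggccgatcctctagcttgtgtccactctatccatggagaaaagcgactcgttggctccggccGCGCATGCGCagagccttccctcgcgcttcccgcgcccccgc
Atp5g1 (chr11:96075632-96075781, minus strand): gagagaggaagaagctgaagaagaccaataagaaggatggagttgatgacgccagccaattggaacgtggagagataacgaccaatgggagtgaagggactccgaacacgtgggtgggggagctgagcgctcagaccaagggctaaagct

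Values of the genes with and without the NRF1 letters were set side by side. The 17 genes with them had median levels of 154 and 148 FPKM, and 14 were tested, 9 higher and 5 lower with a median log2 ratio of 0.08. The 49 genes without them had median levels of 109 and 114 FPKM, and 39 were tested, 23 higher and 16 lower with a median of 0.03. The difference between these medians was not tested.

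Other genes of the pathway were read from fixed lists, and none of them held a call by Cuffdiff, where 0.662% of all tested genes were called, so that lists of this size would hold few or no calls at that share. The 13 subunits encoded in mitochondrial DNA were all tested, with 5 higher, 8 lower and a median log2 ratio of -0.05. Their median levels were 2068 and 1978 FPKM. The smallest p-values in the authors' deposited table belonged to mt-Atp8 at 3375 and 3055 FPKM (Cuffdiff p 0.493) and mt-Nd5 at 589 and 640 FPKM (Cuffdiff p 0.606). The most abundant, mt-Co1, the catalytic subunit of complex IV, stood at 8211 and 8992 FPKM, and the implied standard error of its log2 ratio was 0.65. Mitochondrial genes share listed positions, 7 of the 13 with another, and strand is not stated. Among carriers and subunits outside the naming rule, 6 of 11 tested genes were higher and 5 lower. Cycs, cytochrome c, stood at 60.6 and 54.8 FPKM, Cyc1, cytochrome c1 of complex III, at 70.2 and 71.1 FPKM, and Ndufab1, the acyl carrier subunit of complex I, at 330 and 341 FPKM. The smallest p-values there belonged to Etfb and Etfa, the electron transfer flavoprotein, at 174 and 149 FPKM and at 142 and 130 FPKM, for which the authors' deposited table gives a Cuffdiff p of 0.255 and 0.370.

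Assembly factors, which insert cofactors and join subunits, stood lower in abundance than the subunits they serve, with medians of 15.7 and 15.9 FPKM. Of 43 listed, 29 were found, and of 23 tested rows 8 were higher and 15 lower, a median log2 ratio of -0.09, with 0 called (0.662% of all tested genes were) and 0 at an unadjusted Cuffdiff p at or under 0.05 (5.41% of all tested genes were). Sco1, a copper chaperone of complex IV, had the smallest p in the authors' deposited table (0.217), at 7.23 and 8.38 FPKM, followed in that complex by Cox15, a heme A enzyme, at 71.1 and 80.8 FPKM. Ndufaf1 of complex I stood at 26.2 and 30.8 FPKM and Nubpl at 11.7 and 13.4 FPKM. Sdhaf2 of complex II stood at 9.33 and 10.7 FPKM and Ttc19 of complex III at 14.6 and 15.8 FPKM. Atpaf2 and Tmem70 of complex V stood at 22.1 and 21.1 FPKM and, in the same order, at 28.2 and 28.1 FPKM. The medians of assembly factors and subunits lie on opposite sides of 0, and the difference between them was not tested.

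Regulators of respiratory genes gave 9 tested genes, 6 higher and 3 lower. The coactivators Ppargc1a and Ppargc1b stood at 5.86 and 5.502 FPKM and, in the same order, at 4.79 and 4.43 FPKM. Nrf1 stood at 29.7 and 29.5 FPKM. Tfam, which packages mitochondrial DNA and acts in its transcription, stood at 50.02 and 49.5 FPKM. The smallest p-value belonged to Mterfd1 at 66.6 and 73.4 FPKM (Cuffdiff p 0.351 by the authors' deposited table). Gabpa, at 121 and 130 FPKM with a failed test, is listed at the same position as Atp5j, and the coactivator Pprc1, also failed, stood at 40.7 and 51.4 FPKM. Of 14 tested genes of the tricarboxylic acid cycle and pyruvate dehydrogenase, 6 were higher and 8 lower, with a median log2 ratio of -0.02. The smallest p of this list belonged to Pdk2, a kinase that inhibits pyruvate dehydrogenase, at 18.2 and 25.1 FPKM. The log2 ratio of Pdk2 was -0.46 (implied standard error 0.15). The authors' deposited table gives it an unadjusted Cuffdiff p of 0.0017 and a q of 0.156, so it was not called, and it was the 1 gene of its list with p at or under 0.05 (5.41% of all tested genes). Pdk4, another kinase of that enzyme, had a log2 ratio of -1.38 (implied standard error 1.08) at 0.651 and 1.70 FPKM, with a Cuffdiff p of 0.202 by the authors' deposited table. Cs, citrate synthase, stood at 108 and 107 FPKM.

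**Figure D5:**
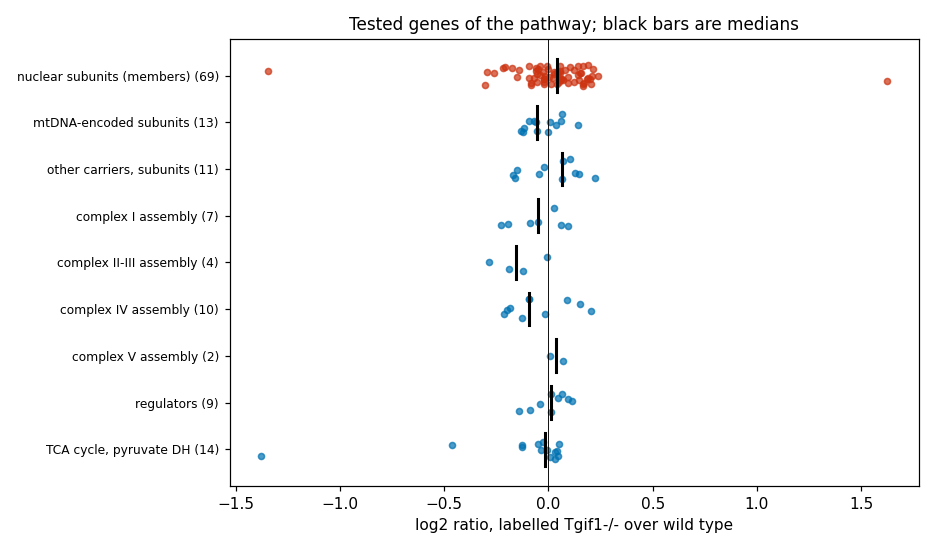
Log2 ratio of each tested gene (points) and the median (black bar) for the 69 tested rows of nuclear subunits and for 8 lists of other pathway genes, with the number tested in brackets. Points are spread vertically at random for display. Medians run from -0.16 for complex II to III assembly factors to 0.06 for other carriers and subunits.

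Beside other abundant housekeeping groups, the subunit genes had a like median. Tested mitochondrial ribosomal protein genes (58) had a median log2 ratio of -0.0034 and tested proteasome subunit genes (24) one of 0.05, against 0.04 for the 69 rows here. None of the 3 groups held a called gene (0.662% of all tested genes were called). An unadjusted Cuffdiff p at or under 0.05 was listed for 1 mitochondrial ribosomal protein gene, 4 proteasome genes and 0 of the rows here, against 5.41% of all tested genes and 4.97% of those averaging 30 FPKM or more.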

How the data were processed

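RNA of 6 LSK samples was sequenced, from about 200 ng each. Per the submitters' processing notes, TopHat and Cuffdiff were used, without versions, and hg19 was named as the build although all 87 identifiers here are mouse identifiers. None of the 87 listed positions equals that in GENCODE M21 (GRCm38), so the build is not known. The authors deposited 1 FPKM value per group and, per the file headers, a log2 fold change, a test statistic, a p-value and a q-value per gene. The deposited fold change has wild type on top and was turned round. The deposited q equals a Benjamini-Hochberg adjustment over the 10730 tested genes (all within 0.001), and p equals the normal two-sided value of the statistic for all 10683 tested genes with values above 0 in both groups. No test was run here apart from the check with raised errors in the last section. All p and q printed are the authors' Cuffdiff values, and log2 ratios use no pseudocount unless stated. Low FPKM values show no steps of whole reads (of 1267 genes under 0.1 FPKM in both groups at most 18 share a ratio), so depth is unknown. Members with q or p at or under 0.05, those with the highest level or extreme ratio per complex, the smallest p per complex and list, and isoform sets were named by rule. Cycs, Cyc1, Ndufab1, Cs, Ppargc1a, Nrf1, Tfam, Pprc1 and Gabpa were named for their role, outside that rule and after their values were seen. The values of 1 row are counted in the totals but not reported here. Exon lengths came from GENCODE M21 and promoters from RefSeq. The members and lists were chosen with earlier results of these data known. Python 3.11.15, pandas 2.3.3, numpy 2.4.6, scipy 1.17.1 and matplotlib 3.10.9 were used. Of the calculations, only the Benjamini-Hochberg adjustment and the check with raised errors were tested on simulated data.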

Additional observations from a re-analysis of the deposited data

How the results depend on the processing

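At a Cuffdiff q threshold of 0.1 still 0 members were called, and the smallest q of a member was 0.9999. A threshold of 0.01 could not have added a call. Each gene's error was also raised to at least the median error of tested genes in the same of 20 expression bins. This can only raise a gene's p, so it was no check for missed calls. With raised errors 0 members and 21 of 10683 genes were called, against 71 of 10730 tested genes at a Cuffdiff q of 0.05. At an unadjusted p threshold of 0.1 there was 1 member, Ndufa5. Counting members whose log2 ratio exceeds its implied standard error left 3 higher and 3 lower. The median of complex III turned from -0.0015 to 0.0303 when centred on the median of all tested genes and to 0.0118 over rows at unshared positions, a setting added after seeing the data, as was leaving out rows that are no subunit gene. The medians of all members and of complexes I, II, IV and V kept their sign and moved by less than 0.05 under each alternative run (minimum of 1 or 5 FPKM, pseudocounts of 0.1 and 1, centring, failed tests, isoforms, Ndufa4 with complex IV, 1 line per symbol and these additions). With a pseudocount of 1 FPKM the ratio of Cox7a1 was 0.87, of Cox4i2 -0.20 and of Cox8b 0.07. Centring turned 8 of 68 single ratios: Atp5g2 to 0.0312, Cox5a to 0.00663, Ndufa11 to 0.0255, Ndufa8 to 0.0094, Ndufc2 to 0.00847, Ndufv2 to 0.0112, Uqcr10 to 0.0170 and Uqcrc1 to 0.00944. No paired analysis was possible because the table holds 1 value per group, and for the same reason no sample could be left out. The unknown depth limits what can be said of Cox7a1, Cox8b and Cox4i2.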
